A study of Homo sapiens with 3 samples.

Results

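The 10 genes described here encode chemokines and interleukins that epithelial tumor cells can secrete: CXCL1, CXCL2, CXCL3, CXCL5, CXCL8, CCL20, IL1A, IL1B, IL18 and LIF. They were picked by name from the deposited gene table of AsPC-1, a cell line from human pancreatic cancer, and all 10 were found among its 16463 listed genes, which have at least 1 read in every library. The cells, labelled wild type in all conditions, were transfected with 200 nM of a negative control siRNA (siNC) or of 1 of 2 siRNAs against the long non-coding RNA LINC00941 (si#1 and si#2), and total RNA was sequenced 24 h later. Each condition had 1 library, so no difference below has a replicate check. An interval beside a fold change covers counting error only, at the 95% level. The library totals over the listed genes were 88690997, 92510692 and 90867405 reads for siNC, si#1 and si#2. LINC00941, the targeted gene, counted 1551 reads in siNC, 214 in si#1 and 273 in si#2, a log2 fold change of -2.89 (interval -3.10 to -2.68) and -2.56 (-2.75 to -2.38). Both comparisons with siNC use the same control library.

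CXCL1, CXCL2, CXCL3, CXCL5 and CXCL8 are CXC chemokines that draw neutrophils through the receptor CXCR2, and CXCL8 also binds CXCR1. CCL20 draws lymphocytes and dendritic cells that carry CCR6. IL1A and IL1B encode the agonists of the interleukin-1 receptor, and IL1B and IL18 are made as precursors that need cleavage by inflammatory caspases. LIF signals through LIFR and the shared subunit gp130, encoded by IL6ST. In epithelial cells the transcription of many chemokine genes is switched on by NF-kB and AP-1, while AU-rich elements in their 3′ untranslated regions make the mRNAs short-lived.

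All 10 of 10 pancreatic ductal and epithelial markers were listed, with a summed TPM (a level corrected for transcript length and library size) of 9636, 7429 and 11245 in siNC, si#1 and si#2. Most of it was the keratin genes KRT8, KRT18 and KRT19, at 3385, 3134 and 2157 in siNC, while KRT7 was at 1.94, CEACAM5 at 2.17 and TFF1 at 0.477. None of 7 T and NK cell markers, 4 B cell markers or 5 neutrophil and pan-leukocyte markers was listed, PTPRC among them. Of 10 macrophage and monocyte markers, CD14, CD68 and LYZ were listed, with a summed TPM of 30.0, 27.4 and 22.9. Of 8 fibroblast markers 4 were listed, and nearly all of their summed TPM of 168, 130 and 132 was LUM. VWF was the single one of 6 endothelial markers listed, at a TPM of at most 0.0479. These are bulk libraries of 1 cultured cell line, so fewer cells expressing a gene and less RNA per cell cannot be told apart.

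The 5 CXC genes lie together on chromosome 4 of GRCh38, at chr4:73740569-73743716 (CXCL8, plus strand), chr4:73869393-73871308 (CXCL1, plus), chr4:73995642-73998677 (CXCL5, minus), chr4:74036589-74038689 (CXCL3, minus) and chr4:74097040-74099195 (CXCL2, minus), by the RefSeq annotation. This span of 359 kb holds 9 protein-coding genes. The 5 members are listed, and CXCL6, PF4V1, PF4 and PPBP were not among the listed genes. IL1A and IL1B are neighbors on the minus strand of chromosome 2, at chr2:112773925-112784493 and chr2:112829751-112836779, with a gap of 45.3 kb between them. CCL20 is also on chromosome 2, at chr2:227813842-227817556 on the plus strand. IL18 is at chr11:112143260-112164094 and LIF at chr22:30240453-30246759.

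The bases just upstream of the CXC genes are shown because they hold the feature the family shares. Each sequence gives the 140 bases before the RefSeq start (GRCh38.p14), 5′ to 3′ on the gene's own strand, and capitals mark a kB core, the NF-kB motif GGAATTTCC, or an AP-1 motif, TGANTCA. The stretches are chr4:73869253-73869392 (CXCL1), chr4:74099196-74099335 (CXCL2), chr4:74038690-74038829 (CXCL3), chr4:73998678-73998817 (CXCL5) and chr4:73740429-73740568 (CXCL8).
CXCL1: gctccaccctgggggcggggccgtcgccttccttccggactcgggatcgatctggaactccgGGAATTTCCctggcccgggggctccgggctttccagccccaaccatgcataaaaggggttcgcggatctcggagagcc
CXCL2: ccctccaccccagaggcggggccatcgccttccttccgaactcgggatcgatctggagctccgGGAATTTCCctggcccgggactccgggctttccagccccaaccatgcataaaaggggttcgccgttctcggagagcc
CXCL3: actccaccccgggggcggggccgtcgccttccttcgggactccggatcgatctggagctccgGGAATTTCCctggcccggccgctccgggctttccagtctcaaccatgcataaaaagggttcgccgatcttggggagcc
CXCL5: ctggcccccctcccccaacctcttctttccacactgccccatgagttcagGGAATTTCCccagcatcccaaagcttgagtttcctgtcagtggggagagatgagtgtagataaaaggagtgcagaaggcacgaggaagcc
CXCL8: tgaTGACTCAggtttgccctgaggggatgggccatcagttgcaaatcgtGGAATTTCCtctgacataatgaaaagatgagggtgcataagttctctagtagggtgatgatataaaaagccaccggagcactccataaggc

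The kB core stood at 78, 77, 78, 90 and 91 bases before the start of CXCL1, CXCL2, CXCL3, CXCL5 and CXCL8. Both strands were searched over 250 bases before the start, and the promoter table used held 8 of the 10 members, without IL18 and LIF. Of these 8 members, 5 had the kB core, against 0.413% of 35097 RefSeq promoters of the same length. The core searched is the very form that the 5 CXC genes share, so this count describes them and is no test. The 5 include CXCL1, CXCL2 and CXCL3, whose upstream bases are near copies of each other, so their matches are not independent. The motif TGANTCA was in 2 of 8, CXCL8 and IL1A, against 6.57% of promoters. A looser kB form, 3 G and 2 C with any 5 bases between them, overlaps the core where a G precedes it. It was in 6 of 8 members, against 54.4% of all promoters and 67.4% of those of listed genes. CCL20 had 7 matches, most of which overlap each other or are the same bases read on both strands. The TATA-like motif, searched over the same 250 bases, was in 7 of 8 members, against 14.8% of promoters, and was read as the letters ATAAAA on either strand. It lay 30 or 31 bases before the start in the CXC genes and IL1B, and in CCL20 115 bases before it, on the other strand. Nearer its start CCL20 also holds the letters TATAAATA, which the search for ATAAAA does not match. A match in these windows is a description of the letters and no measure of binding.

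CXCL1, CXCL2 and CXCL3 are recent copies of each other. Their upstream stretches were identical at 91.5% (CXCL1 and CXCL2), 90.7% (CXCL1 and CXCL3) and 87.9% (CXCL2 and CXCL3) of aligned positions, and their coding sequences at 93.5%, 90.7% and 94.4%. Of all windows of 50 bases, 5.33% of the CXCL1 transcript, 10.1% of the CXCL2 transcript and 5.26% of the CXCL3 transcript recurred in another of the 3. Reads from these windows could be divided among the 3 genes, so the value of each single gene is uncertain to that extent.

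The stretches upstream of the neighboring interleukin genes, chr2:112784494-112784633 (IL1A) and chr2:112836780-112836919 (IL1B), are shown because these genes took opposite directions with si#2. Neither holds the kB core. IL1A has an AP-1 match 12 bases before its start, and IL1B a TATA-like match 30 bases before its start. Whether these letters bear on the changes with si#2 was not tested.
IL1A: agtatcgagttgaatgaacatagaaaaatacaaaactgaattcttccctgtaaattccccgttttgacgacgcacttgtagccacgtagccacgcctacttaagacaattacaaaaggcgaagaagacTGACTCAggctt
IL1B: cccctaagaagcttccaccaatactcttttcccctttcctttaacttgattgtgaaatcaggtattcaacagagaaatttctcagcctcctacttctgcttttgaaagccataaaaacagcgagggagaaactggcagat

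**Figure D1:**
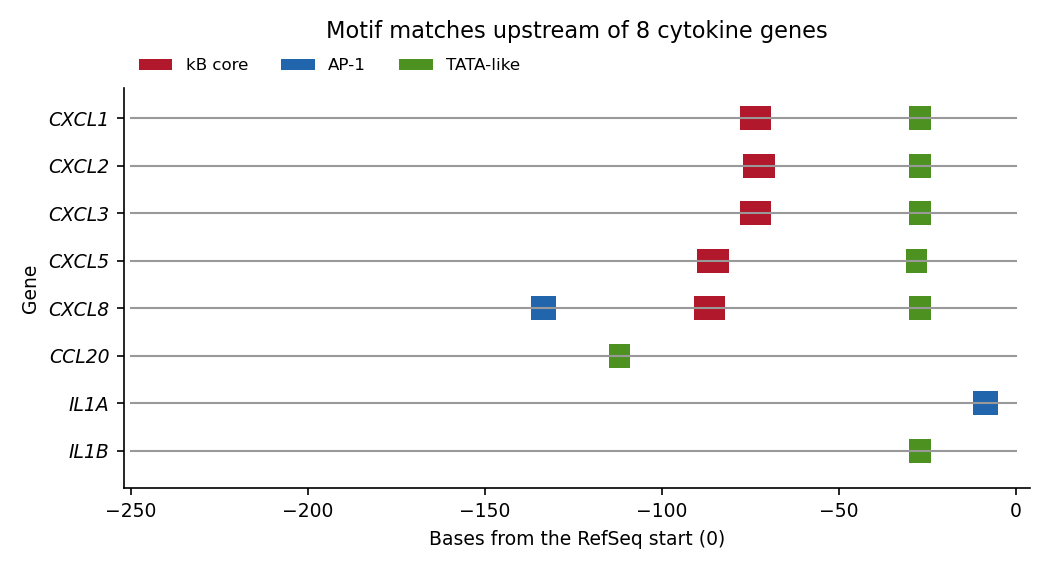
Motif matches in the 250 bases upstream of the 8 members that the promoter table held, by distance in bases from the RefSeq start at 0. Boxes mark the kB core (red), the AP-1 motif (blue) and the TATA-like motif (green). The kB core lies between 77 and 91 bases before the start in all 5 CXC genes and in none of the other 3.

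At the other end of the mRNA, the pentamer ATTTA, the core of AU-rich elements, occurred in the 3′ untranslated region of 9 of the 10 members. The count was 6 in CXCL1, 10 in CXCL2, 7 in CXCL3, 11 in CXCL5, 9 in CXCL8, 3 in CCL20, 5 in IL1A, 6 in IL1B and 7 in LIF, and 0 in IL18. Per kilobase, CXCL2 had 14.0 and CXCL3 10.4, LIF had 2.19, and the median over 12237 listed genes with such a region was 1.66. All members but IL18 lay above that median. The longer motif TATTTAT was in 9 of 10 members, against 35.2% of the listed genes.

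IL18 was by far the most abundant of the members in the control cells. Its TPM in siNC, si#1 and si#2 was 167, 94.7 and 111, and in siNC it stood at percentile 96.2 of the listed genes. LIF followed with a TPM of 26.9, 27.0 and 25.2, and CXCL8 with 15.3, 12.6 and 14.8. Together these 3 genes made up 93.2%, 92.3% and 91.3% of the summed TPM of the members, which was 224, 145 and 166. IL18 alone made up 74.4%, 65.1% and 67.1%. The summed reads of the members fell less than their TPM, at 19926, 16643 and 18196. For CXCL8 with si#2 against siNC the TPM was lower, 14.8 against 15.3, but the reads were more, 1613 against 1400. TPM therefore serves here to order genes within a library, and changes between libraries are taken from the normalized read counts below.

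The remaining 7 members were expressed at a low level. CXCL1 had a TPM of 4.61, 3.12 and 3.88 in siNC, si#1 and si#2, CCL20 of 4.12, 3.11 and 5.67, and CXCL2 of 3.04, 1.79 and 2.42. CXCL5 had 1.19, 1.03 and 0.540, and IL1A 1.10, 1.08 and 0.369. IL1B had 0.444, 0.640 and 0.868, and CXCL3 0.839, 0.387 and 0.706. The order from IL18 to LIF to CXCL8 was the same in the 3 libraries, while CCL20 and CXCL1 changed places with si#2, where IL1B also stood above CXCL3, CXCL5 and IL1A. Where neighbors in this order lie as close as CXCL1 and CCL20 with si#1, 1 library each cannot tell their order.

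**Figure D2:**
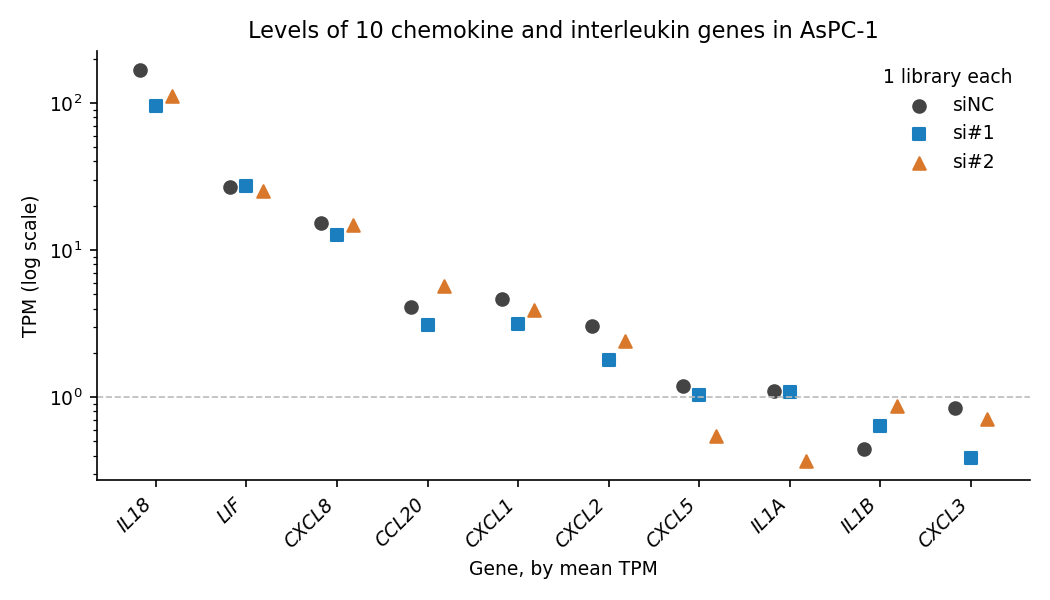
TPM of the 10 members (log scale) in siNC (circles), si#1 (squares) and si#2 (triangles), 1 library each, ordered by mean TPM; the dashed line marks a TPM of 1. IL18 lies at 94.7 to 167 and LIF at 25.2 to 27.0, and IL1A with si#2 is the lowest point, at 0.369.

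Genes were called at a difference of 2-fold or more on quantile-normalized log2(read count + 1) values. The methods of the study name this rule for FPKM, but the columns headed FPKM hold the read counts, which were used here. With si#1 no member passed it in either direction, while 5.22% of the listed genes were called higher and 6.8% lower. With si#2, IL1B was called higher and IL1A lower, against 5.49% of listed genes called higher and 7.17% lower. Between the siRNAs, IL1A was called lower with si#2 than with si#1 and no member higher, against 4.03% lower and 4.2% higher of the listed genes. No member passed in the same direction with both siRNAs, where 2.53% of the listed genes were higher and 3.51% lower. In either direction, 2 of 10 members with si#2 stand beside 12.7% of the listed genes, and 0 with si#1 beside 12.02%. Genes of few reads passed more often. Among the 2882 genes with a mean of 40 to 400 reads, a range set after the values were seen and holding 7 members, 16.6% were called with si#1 and 18.1% with si#2. For the members, the median log2 fold change was -0.22 and -0.09 with si#1 and si#2, against 0.03 and 0.02 over all listed genes. Of the 10 members, 7 had a value below 0 with si#1 and 6 with si#2, and of the 16463 listed genes 7465 and 7515 did. On log2(TPM + 1), which shrinks the changes of such low genes, neither IL1A nor IL1B passed, and with a pseudocount of 10 IL1B did not. When genes with a mean under 100 reads were left out, CXCL5 passed with si#2, at -1.01.

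**Figure D3:**
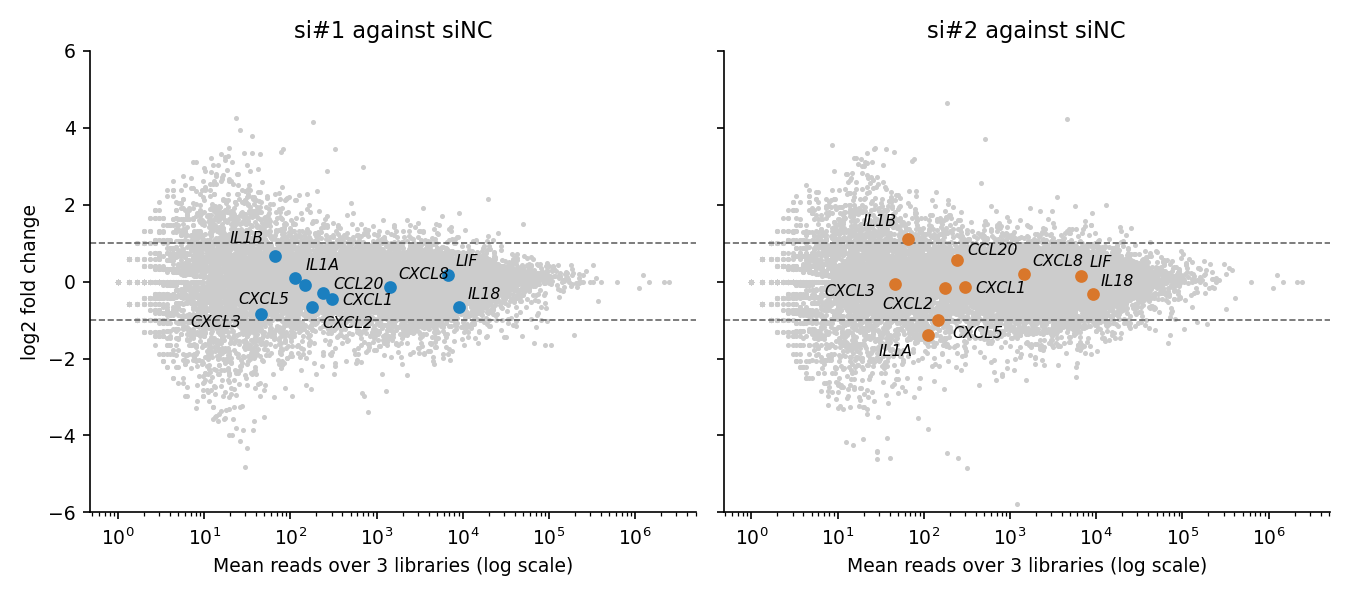
log2 fold change (vertical) against mean reads over the 3 libraries (horizontal, log scale) for the 16463 listed genes (gray) and the 10 members (colored), with si#1 on the left and si#2 on the right. Dashed lines mark 2-fold. With si#1 all members lie between the lines, and with si#2 IL1B lies above and IL1A below them.

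The agonist genes of the interleukin-1 receptor moved apart with si#2. IL1A, an alarmin that is active as a precursor, had 135, 149 and 54 reads in siNC, si#1 and si#2. The siNC and si#1 libraries were alike and the si#2 library low. With si#1 its log2 fold change was 0.08 (-0.26 to 0.43), and with si#2 it fell, at -1.39 (-1.87 to -0.92), which is 2.61-fold lower. A comparison of si#2 with si#1 gave -1.47 (-1.95 to -1.01).

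IL1B had 41, 66 and 92 reads, lowest in siNC and highest with si#2. With si#1 it was at 0.67 on the log2 scale (0.09 to 1.27), under the threshold, and with si#2 it rose by 1.12 (0.57 to 1.68), which is 2.17-fold. Between the siRNAs it was 0.44, with an interval that includes 0 (-0.03 to 0.92). IL1B was thus above siNC with both siRNAs, and IL1A below siNC with si#2 alone.

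The ratio of IL1B to IL1A reads within a library restates this shift from the same reads and is no separate support for it. This ratio needs no scaling between libraries. In siNC it was 0.304 (0.209 to 0.434), in si#1 0.443 (0.326 to 0.596) and in si#2 1.70 (1.20 to 2.43). Against siNC the ratio was 1.46 times as high with si#1 (0.905 to 2.36), an interval that includes 1, and 5.58 times with si#2 (3.36 to 9.39). The si#2 ratio was 3.83 times that of si#1 (2.41 to 6.15). These changes, and those of the ratios below, are conditional odds ratios, which can differ slightly from quotients of the printed ratios.

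IL1RN, which encodes the antagonist of the same receptor and lies 263 kb from IL1B, was listed at 7, 36 and 59 reads. It is the only other interleukin-1 family ligand of 8 on the list that was listed, and it rose with both siRNAs, with a log2 fold change of 2.38 (1.19 to 3.79) and 3.02 (1.89 to 4.39). In siNC it had 0.0398 reads for each read of IL1A and IL1B together, with si#1 0.167 and with si#2 0.404. That ratio was 4.20 times (1.79 to 11.5) and 10.1 times (4.43 to 27.0) the siNC value. Its level remained low, at a TPM of 0.0534, 0.270 and 0.479, below that of IL1B in each library.

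IL18 had 11234, 7203 and 8723 reads, highest in siNC and lowest with si#1. Against siNC it was at -0.66 (-0.71 to -0.62) with si#1 and at -0.32 (-0.36 to -0.28) with si#2 on the log2 scale, both under 2-fold and both with intervals below 0. IL18BP, whose secreted product binds and neutralizes interleukin-18, had 206, 92 and 96 reads and fell with both siRNAs, with a log2 fold change of -1.20 (-1.57 to -0.84) and -1.17 (-1.54 to -0.82). For each IL18 read there were 0.0183, 0.0128 and 0.0110 IL18BP reads in siNC, si#1 and si#2, so that the ratio was 0.697 times (0.538 to 0.897) and 0.600 times (0.465 to 0.770) that of siNC.

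Among the neutrophil chemokines, CXCL8 had 1400, 1323 and 1613 reads and took opposite signs with the 2 siRNAs. The si#1 value was -0.14 on the log2 scale (-0.25 to -0.03) and the si#2 value 0.19 (0.09 to 0.29). CXCL5 had 176, 171 and 93 reads, with siNC and si#1 alike and si#2 low. With si#2 its log2 fold change was -0.99 (-1.36 to -0.62), just short of the threshold, and with si#1 -0.09 (-0.41 to 0.22). IL1B with si#2, at 1.12, was the called value nearest to the threshold among the members.

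CXCL5, like IL1A, was thus low in the si#2 library alone. For each CXCL8 read, CXCL5 had 0.126 reads in siNC, 0.129 in si#1 and 0.0577 in si#2, where the ratio was 0.459 times that of siNC (0.349 to 0.600).

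The copies CXCL1, CXCL2 and CXCL3 had their lowest values with si#1. CXCL1 had 328, 251 and 322 reads, and its log2 fold change was -0.45 (-0.69 to -0.21) for si#1 and -0.14 (-0.36 to 0.09) for si#2. CXCL2 had 206, 137 and 190 reads, at -0.65 (-0.97 to -0.33) and -0.17 (-0.46 to 0.13). CXCL3 had 55, 29 and 54 reads, at -0.84 (-1.55 to -0.17) and -0.05 (-0.62 to 0.52).

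For each of the 3 the si#1 library was low and the si#2 library close to siNC, and no value passed 2-fold. Summed, which is not touched by reads divided among the copies, they had 589, 417 and 566 reads. CXCL1 had 1.59 reads for each CXCL2 read in siNC, 1.83 with si#1 and 1.69 with si#2. Against siNC that ratio was 1.15 times (0.869 to 1.52) and 1.06 times (0.822 to 1.38), so a difference was not detectable at this depth. Of the 5 CXC genes with the kB core, all had a value below 0 with si#1, and with si#2 all but CXCL8 did, none past 2-fold. Among the 16463 listed genes, 7465 and 7515 were below 0. The intervals of CXCL5 with si#1 and of CXCL1, CXCL2 and CXCL3 with si#2 include 0. On log2(TPM + 1) the sign of CXCL1 with si#2 and of CXCL5 with si#1 turned.

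CCL20 had 209, 178 and 332 reads and was highest with si#2. On the log2 scale it was at -0.30 (-0.60 to -0.01) for si#1 and at 0.57 (0.32 to 0.83) for si#2. The siRNAs differed by 0.87 (0.61 to 1.15) in this gene, under 2-fold.

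LIF had 6142, 7136 and 6723 reads and differed little among the libraries. It was at 0.18 (0.13 to 0.23) for si#1 and at 0.16 (0.11 to 0.21) for si#2 on the log2 scale. Between the siRNAs it was -0.03 (-0.07 to 0.02), an interval that includes 0.

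**Figure D4:**
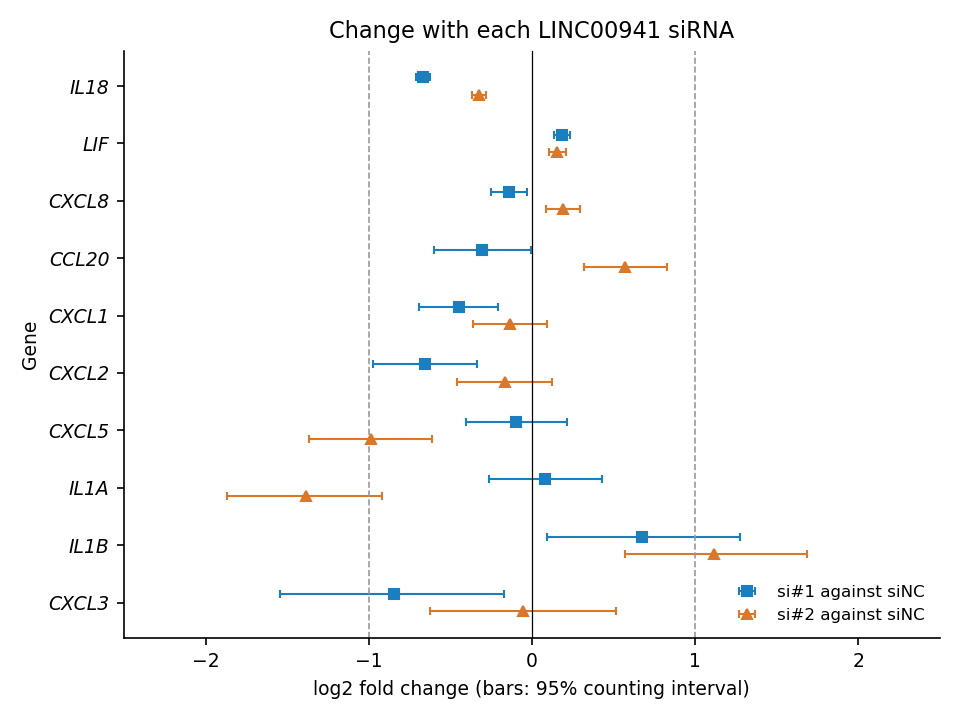
log2 fold change of each member with si#1 (squares) and si#2 (triangles) against siNC, with the 95% counting interval as a bar; dashed lines mark 2-fold and genes are ordered by mean TPM. IL1A at -1.39 and IL1B at 1.12, both with si#2, are the points beyond the lines.

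Of 39 other chemokines 6 were listed. CCL5, which draws T cells and monocytes, fell with both siRNAs, from 32 reads in siNC to 7 and 5, a log2 fold change of -1.97 (-3.40 to -0.77) and -2.37 (-4.09 to -1.0). With si#2 alone, CCL26 rose, at 24, 17 and 61 reads and 1.31 (0.60 to 2.05), and CCL28 fell, at 117, 93 and 60 reads and -1.02 (-1.49 to -0.56). The most abundant were CCL15, with a TPM of 6.94, 8.24 and 12.3, CCL24 with 2.86, 4.23 and 4.77, and CXCL16 with 4.18, 3.57 and 3.36, none past 2-fold. The median of the 6 was -0.23 with si#1 and 0.30 with si#2.

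Of 32 other interleukins and colony-stimulating factors 8 were listed, and 3 rose with both siRNAs. CSF2, the gene of the growth factor GM-CSF, had 8, 40 and 87 reads, with a log2 fold change of 2.34 (1.22 to 3.64) and 3.36 (2.32 to 4.62). IL17D had 7, 49 and 16 reads, at 2.81 (1.66 to 4.19) and 1.24 (-0.12 to 2.77). IL23A, a subunit of interleukin-23, had 9, 20 and 25 reads, at 1.17 (-0.03 to 2.49) and 1.46 (0.31 to 2.74). The IL17D value with si#2 and the IL23A value with si#1 have intervals that include 0. IL16 fell with si#1 alone, on 13, 4 and 13 reads, with an interval that includes 0 (-3.49 to 0.28). IL32 and IL15, the most abundant by TPM, were under 2-fold, and the list's median was 0.57 and 0.37.

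Among the cytokines that share gp130 with LIF, 2 of 9 were listed. CLCF1 had 208, 429 and 435 reads, at 0.98 (0.73 to 1.22) and 1.00 (0.76 to 1.24), both just under the threshold. CTF1 had 38, 45 and 39 reads.

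The receptors for the 5 CXC members and CCL20, namely CXCR1, CXCR2 and CCR6, were not among the listed genes. Of 23 chemokine receptors 3 were listed, and none passed with both siRNAs. ACKR3, a scavenging receptor of CXCL12, had 442, 122 and 319 reads and fell with si#1, at -1.90 (-2.20 to -1.61), against -0.55 (-0.77 to -0.34) with si#2. ACKR4, a scavenging receptor of CC chemokines, had 357, 330 and 163 reads and fell with si#2, at -1.17 (-1.45 to -0.90), against -0.18 (-0.41 to 0.04). CCRL2 had 151, 201 and 184 reads, under 2-fold.

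Of 22 genes of interleukin-1 and interleukin-18 receptor signaling 17 were listed, and 3 fell with both siRNAs and none rose. Beside IL18BP these were MYD88, the adaptor of both receptors, with 799, 404 and 349 reads, at -1.01 (-1.18 to -0.83) and -1.24 (-1.42 to -1.05), and TAB2, an adaptor of the kinase TAK1, with 5103, 2563 and 2497 reads, at -1.03 (-1.10 to -0.96) and -1.02 (-1.08 to -0.95). TAB3, a relative of TAB2, fell with si#1 alone, at -1.36 against -0.85 with si#2. MYD88 with si#1 and TAB2 with both siRNAs lie close to the threshold.

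The ligand-binding subunit genes IL1R1 and IL18R1 were low, at 83, 81 and 90 reads and at 77, 77 and 67 reads, and IL1R2 and IL18RAP were not among the listed genes. IL1RAP, the accessory subunit, had 4152, 2716 and 3050 reads, at -0.64 (-0.71 to -0.57) and -0.41 (-0.48 to -0.34). SIGIRR, an inhibitory member of the receptor family, had 2014, 3610 and 3538 reads, at 0.80 (0.72 to 0.88) and 0.83 (0.75 to 0.91). IRAK1, a kinase downstream of MYD88, was the most abundant, with a TPM of 102, 139 and 121, and like IL1RAP, SIGIRR and the kinase gene MAP3K7 it was under 2-fold. The median over the 17 genes was -0.05 and -0.14.

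All 14 genes of LIF receptor signaling were listed and none passed with both siRNAs. LIFR had 2043, 2490 and 2053 reads, at 0.24 (0.15 to 0.32) and 0.00 (-0.09 to 0.09). IL6ST had 6795, 13778 and 3901 reads, just under 2-fold with si#1 at 0.99 (0.95 to 1.04) and with the opposite sign with si#2, at -0.78 (-0.83 to -0.72). SOCS3, a feedback inhibitor of the pathway, rose with si#2 alone, with 390, 676 and 1152 reads, at 0.73 (0.55 to 0.91) and 1.53 (1.36 to 1.70). PTPN11 and JAK1, among the most abundant, were under 2-fold, and the median was 0.13 with each siRNA.

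All 23 NF-kB factors were listed, and 2 fell with both siRNAs. BIRC3, an NF-kB target gene and regulator, had 12247, 3121 and 2187 reads, at -2.0 (-2.06 to -1.94) and -2.48 (-2.54 to -2.41). REL, which encodes the subunit c-Rel, had 2089, 818 and 805 reads, at -1.38 (-1.50 to -1.27) and -1.39 (-1.51 to -1.27). TRAF1 rose with si#1 alone, at 37, 108 and 57 reads. TNIP2, NFKBIA and NFKB1, the most abundant, were under 2-fold, with NFKBIA, the inhibitor of NF-kB that NF-kB itself induces, at 3349, 5074 and 4273 reads. The median over the list was 0.08 and 0.06.

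Of 26 other NF-kB responsive genes 16 were listed. PLAU, the gene of urokinase, rose with both siRNAs, with 7305, 33635 and 17794 reads, at 2.15 (2.11 to 2.19) and 1.32 (1.28 to 1.36). The complement gene C3 fell with si#2 alone, with 64, 67 and 17 reads, at -1.84 (-2.71 to -1.05). IER3 and SDC4, also among the most abundant of the list, were under 2-fold, and the median was 0.29 and 0.21.

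Outside the members, 54 listed genes had the kB core in the same 250 bases. Of these, 2 rose with both siRNAs (THG1L and WNT10A) and 3 fell (LOC101593348, REL and BRCA2), named after their values were seen. The 54 genes had a median log2 fold change of -0.14 and 0.04, and none of the 5 CXC members that carry the core was called.

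None of the 13 listed AP-1 and C/EBP factors, of 15 on the list, passed with either siRNA. JUN had 3780, 6113 and 7113 reads, at 0.67 (0.61 to 0.73) and 0.94 (0.88 to 1.00), FOS was at 0.09 (0.04 to 0.14) and 0.60 (0.55 to 0.64), and JUNB at 0.22 (0.16 to 0.29) and 0.62 (0.56 to 0.68). The list's median was 0.22 and 0.24.

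Of 23 genes of the inflammasome and of cytokine processing 13 were listed, and none passed with both siRNAs. GSDME, a pore-forming gasdermin, fell with si#1, with 217, 102 and 116 reads, at -1.14 (-1.50 to -0.80), and stood at -0.98 (-1.32 to -0.65) with si#2. NLRP6 rose with si#2 alone, on 14, 13 and 38 reads. CAPN2 and CAPN1, the genes of calpains, which cleave the IL1A precursor, had a TPM of 394, 421 and 254 and of 95.5, 124 and 121. CASP4, whose product can cleave the IL18 precursor, had a TPM of 92.1, 129 and 88.1, and these 3 genes were under 2-fold.

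All 18 mRNA decay factors were listed, and 2 fell with both siRNAs. ZFP36L1, whose protein binds AU-rich elements, had 3400, 1335 and 1454 reads, at -1.38 (-1.47 to -1.29) and -1.22 (-1.31 to -1.13). TIAL1, which encodes another AU-rich element binding protein, had 5580, 2464 and 2544 reads, at -1.20 (-1.27 to -1.14) and -1.11 (-1.18 to -1.04). CNOT1, the scaffold of the deadenylase complex, was at -0.84 and -0.89, and CNOT7 and PARN were under 2-fold. The median over the list was -0.08 and -0.35.

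Each list's count with both siRNAs is to be read beside the 2.53% and 3.51% of all listed genes given above. Those shares cover genes of all depths, while IL1RN, CSF2, CCL5, IL23A and IL17D had few reads. As given above, genes of few reads passed more often with each siRNA. On log2(TPM + 1), only PLAU, BIRC3, ZFP36L1 and TIAL1 of the 13 genes past 2-fold with both siRNAs passed again, and with a pseudocount of 10 all but IL17D, IL23A and MYD88 did.

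**Figure D5:**
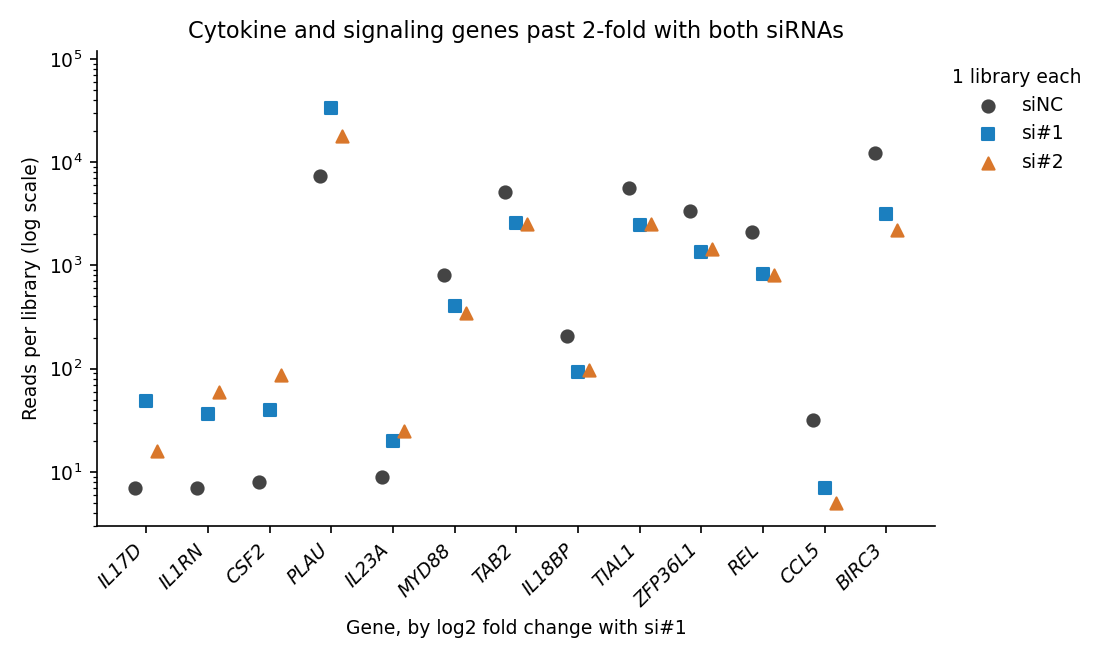
Reads per library (log scale) in siNC (circles), si#1 (squares) and si#2 (triangles), 1 library each, for the 13 genes of the cytokine and signaling lists past 2-fold in the same direction with both siRNAs. The 5 genes on the left are higher with both siRNAs, and the 8 from MYD88 to BIRC3 are lower with both.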

How the data were processed

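Total RNA of AsPC-1 was sequenced in 3 stranded, paired-end libraries, 1 per condition. Per the labels and methods, the authors used HISAT2 for alignment to GRCh38 and StringTie for assembly. Neither version is given in the sources used here. Read counts per gene and TPM were taken from the deposited table. Columns that the authors headed FPKM equal the counts in all 16463 genes, and normalized columns of the authors hold the log2(count + 1) values after quantile normalization. The 6 columns of the authors' own comparisons (fold changes and volumes, scores derived by the authors) and 15 per-sample columns of a second sheet were not used.

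The counts were quantile-normalized as log2(count + 1), which differed from the deposited values by at most 5.0e-09, and called at 2-fold. The counting interval of a fold change is the exact Clopper-Pearson one for 2 counts, turned into a ratio and scaled as the counts were. For a ratio within a library it is the same interval without scaling. The change of such a ratio between libraries is a conditional odds ratio with its own interval. It was estimated from the counts of both sides of the ratio in both libraries, without scaling. The 2-fold rule with both siRNAs and the pooled fits were run on simulated data, and the other steps were not. The pooled alternative fits used edgeR 4.0.16 and DESeq2 1.42.0 in R 4.3.3, with the spread taken from both siRNA libraries. Upstream bases came from RefSeq (GRCh38.p14) and 3′ untranslated regions from GENCODE MANE Select transcripts.

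Named were all members, the receptors of the members, and of each list the genes past 2-fold with both siRNAs and the up to 3 of highest mean TPM, of which 1 gene is not reported here. Genes past 2-fold with 1 siRNA alone were added after their values were seen. The members and lists were chosen with earlier results of these data known.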

Additional observations from a re-analysis of the deposited data

How the results depend on the processing

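No paired analysis was possible because each condition has 1 library. Of 204 values of members under alternative scalings, pseudocounts and filters, 189 stayed within the counting interval and 15 moved beyond it. The values past 2-fold were those of IL1A with si#2 and between the siRNAs, and of IL1B with si#2. Of these, 0 changed sign. TMM, DESeq2 size factors, total read count and a mean count of at least 10 gave the same called members. With log2(TPM + 1), which shrinks changes of genes near a TPM of 1, 0 members passed with si#2 and 0 between the siRNAs. With a pseudocount of 10, 1 member passed with si#2 (IL1A). With a mean count of at least 100, which leaves 8 members, CXCL5 (-1.01) and IL1A fell with si#2. At 1.5-fold, 4 members passed with si#1 (CXCL2, CXCL3 and IL18 lower, IL1B higher), beside 4489 of the 16463 listed genes. With si#2, CXCL5 and IL1A passed lower and IL1B higher, beside 5012 listed genes. Between the siRNAs 4 members passed at 1.5-fold, and 1, IL1B, with both. For these last counts the share of all listed genes was not taken, so they cannot be weighed. Under 2-fold, the sign of CXCL1 with si#2 and of CXCL5 with si#1 held in 7 of 8 settings and turned with log2(TPM + 1). Among all listed genes, 43.4% of the calls with each siRNA were higher, against 27.5% and 30.4% with log2(TPM + 1), which made 346 and 428 calls in place of 1979 and 2085. A pseudocount of 10 made 1179 and 1260, a mean count of at least 100 made 667 and 778, and 1.5-fold made 4489 and 5012. The pooled fit sets both siRNA libraries, as if replicates of 1 condition, against the lone siNC library, so its p-values have no replicate of siNC behind them. For this reason only its log2 fold changes are given. By edgeR and by DESeq2 alike, IL18 was at -0.54, IL1A at -0.46 and IL1B at 0.90.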
